A study of Mus musculus with 17 samples.

Results

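White matter oligodendrocyte spots were the 450 spots, of 7807 with at least 1000 counts (7827 in all), that carried the most RNA of 5 oligodendrocyte genes. Each section gave the 150 spots with the highest mean log1p(counts per 10000) of Mobp, Mal, Mog, Opalin and Ermn, and all other spots of the section were the comparison: 2637, 2381 and 2339 spots. Spots come from Visium arrays, on which RNA released from a brain section is captured in small patches that can hold several cells or parts of cells. The sections were posterior section 2, anterior section 5 and posterior section 6, and values for 3 sections are given in that order throughout. All came from wild-type mice, with no treatment named; posterior and anterior refer to the level of the anterior thalamic nuclei that a section was labelled with. The frozen sections were 10 µm thick and were stained for NeuN and DAPI. The series also holds single cells of wild-type B6 mice, harvested by hand after microdissection of the same nuclei, which were used here only to look up the same genes. The spots came without coordinates, so which fibre tracts they lay in is not known from the files used here, and the labels do not say whether the sections came from separate animals.

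Oligodendrocytes are the cells of the central nervous system that wrap axons in myelin, a compacted stack of membrane rich in cholesterol and galactolipids and held together by a small number of very abundant proteins. They form from precursor cells through a newly formed stage, and SOX10, OLIG2 and MYRF are the factors that drive their myelin genes. In the forebrain they lie densest in fibre tracts such as the corpus callosum and the internal capsule, where neuronal cell bodies are scarce and axons, fibrous astrocytes and microglia are the other tissue components.

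The 5 genes that chose the spots are given as a description, without a test. Mobp (myelin-associated oligodendrocyte basic protein) was at 5709.6, 6987 and 6378 CPM (counts scaled to a total of 1e+06 over the summed spots) in white matter spots and at 619, 657 and 674 CPM in the other spots. Mal, a proteolipid of myelin rafts, was at 3113, 3149 and 2855 CPM against 309, 293 and 304 CPM. Mog, a glycoprotein of the outermost myelin layer, was at 949, 999 and 1017 CPM against 111, 92.1 and 102 CPM. For all 3 genes the values inside lay far above those outside in every section. Opalin, an oligodendrocyte transmembrane protein, was at 539, 641 and 557 CPM against 59.6, 48.2 and 56.5 CPM. Ermn, an actin-binding protein of the oligodendrocyte, was at 710.5, 863 and 744 CPM against 59.4, 64.6 and 62.2 CPM. Opalin lacked a count in some chosen spots: 95.3%, 82% and 87.3% of them had one. The score had no gap at its border: the lowest value inside and the highest outside were 2.342 and 2.339 in posterior section 2, 2.347 and 2.341 in anterior section 5, and 2.361 and 2.358 in posterior section 6, against medians of 2.68, 2.71 and 2.65 inside and 0.704, 0.655 and 0.728 outside. With the spots chosen on a random part of the counts, 128, 114 and 117 of the 150 spots were the same. On the counts that had not chosen them, Mobp was still 8.42, 8.54 and 8.64 times as high.

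White matter spots held less RNA than the others. Their median total was 5302.5, 2338.5 and 3571.5 counts, against 9181, 5496 and 7483 counts in the other spots, a ratio of 0.578, 0.425 and 0.477. The sums tested held 858560, 368377 and 571331 counts for white matter spots, so the anterior section was the shallowest, and 25170913, 13415473 and 18009898 counts for the other spots. In spots, fewer cells of a type and less RNA per cell cannot be told apart. Barcodes were shared between sections, 1252 of them by all 3; Visium slides carry one common set of position barcodes. Mitochondrially encoded genes took a median of 11.6%, 9.67% and 10.0% of the counts in white matter spots and 12.4%, 10.1% and 9.07% in the others.

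Promoter sequence is shown for 4 genes of the set, since genes that move together may share letters near their start. The 250 bases before the start come from RefSeq (GRCm38.p6), written 5′ to 3′ on the strand of the gene, and capitals mark ACAAAG and ACAATG, core motifs of the SOX family, on either strand (CTTTGT and CATTGT on the other). Mobp (chr9:120149492-120149741, plus strand), Opalin (chr19:41077114-41077363, minus strand) and Mog (chr17:37023399-37023648, minus strand) are genes of the rule and Cnp (chr11:100574689-100574938, plus strand) is not.
Mobp: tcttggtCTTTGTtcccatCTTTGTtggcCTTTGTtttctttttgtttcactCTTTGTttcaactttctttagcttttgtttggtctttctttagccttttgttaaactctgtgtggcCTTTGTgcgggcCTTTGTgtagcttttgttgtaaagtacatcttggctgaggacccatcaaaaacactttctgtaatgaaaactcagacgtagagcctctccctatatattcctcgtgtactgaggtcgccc
Opalin: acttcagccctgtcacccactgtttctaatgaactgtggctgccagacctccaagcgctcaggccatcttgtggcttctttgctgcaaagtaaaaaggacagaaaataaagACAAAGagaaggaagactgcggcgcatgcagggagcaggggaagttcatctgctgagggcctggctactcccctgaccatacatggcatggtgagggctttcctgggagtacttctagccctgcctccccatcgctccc
Cnp: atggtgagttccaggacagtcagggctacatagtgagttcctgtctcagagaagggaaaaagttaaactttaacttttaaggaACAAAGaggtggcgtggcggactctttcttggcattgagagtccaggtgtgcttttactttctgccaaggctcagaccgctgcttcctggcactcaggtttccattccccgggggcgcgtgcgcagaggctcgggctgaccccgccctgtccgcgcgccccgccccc
Mog: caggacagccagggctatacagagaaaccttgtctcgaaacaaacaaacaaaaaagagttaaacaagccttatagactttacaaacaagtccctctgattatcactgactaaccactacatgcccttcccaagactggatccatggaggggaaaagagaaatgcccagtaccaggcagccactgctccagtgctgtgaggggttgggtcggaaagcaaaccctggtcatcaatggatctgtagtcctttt
The window of Mobp held 6 matches, those of Opalin and Cnp 1 each and that of Mog 0. Among genes looked up but not shown, Mal, Cldn11, Ugt8a and Gpr37 had 0 and Ermn had 1. Tspan2 and Mag had 1 in some but not all of their windows. The 4 genes shown therefore do not stand for the set. A match was present in 27 of 87 promoters (31.0%) of the genes that were at least 8-fold higher in white matter spots, for 63 of 99 genes with an entry. Among promoters of all genes tested it was present in 17.6% (2409 of 13722), and in the whole table of RefSeq promoters in 25.2% (8292 of 32851). Genes with several promoters count more than once, a match is not a binding site, and the shares were not tested.

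The main comparison asked which genes set white matter spots apart from the rest of the section. Raw counts were summed per section over white matter and over other spots and tested with edgeR, with the section as a block and without the 5 genes of the rule. Of 14086 genes tested, 2628 (18.7%) were higher and 3199 (22.7%) lower in white matter spots at an adjusted p under 0.05. Of these, 1369 were higher and 1724 lower by 2-fold or more, and 99 and 109 by 8-fold or more; the median of all genes was -0.06 on the log2 scale. The model gave every gene the same trended spread, with no share for the gene's own spread between sections. Small p-values therefore say little more than the fold and the depth do. The SE printed after each fold rests on the same trend, so it also leaves out a gene's own spread between sections. The values of the 3 sections are printed beside some of the fold changes, and for the others the spread between sections is not shown. Of the genes called, 2480 of the 2628 higher and 3151 of the 3199 lower had 1 direction in all 3 sections. A shared direction is thus usual among called genes. The share of all genes whose sections did not overlap between the groups was not counted, so non-overlap is given below as a description only. P-values and SE rest only on the spread between these sections, taken as a trend over all genes. CPM values below are unscaled, while log2 fold changes (± SE) rest on scaled totals; scaling moves a fold by about 0.15 on the log2 scale.

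**Figure D1:**
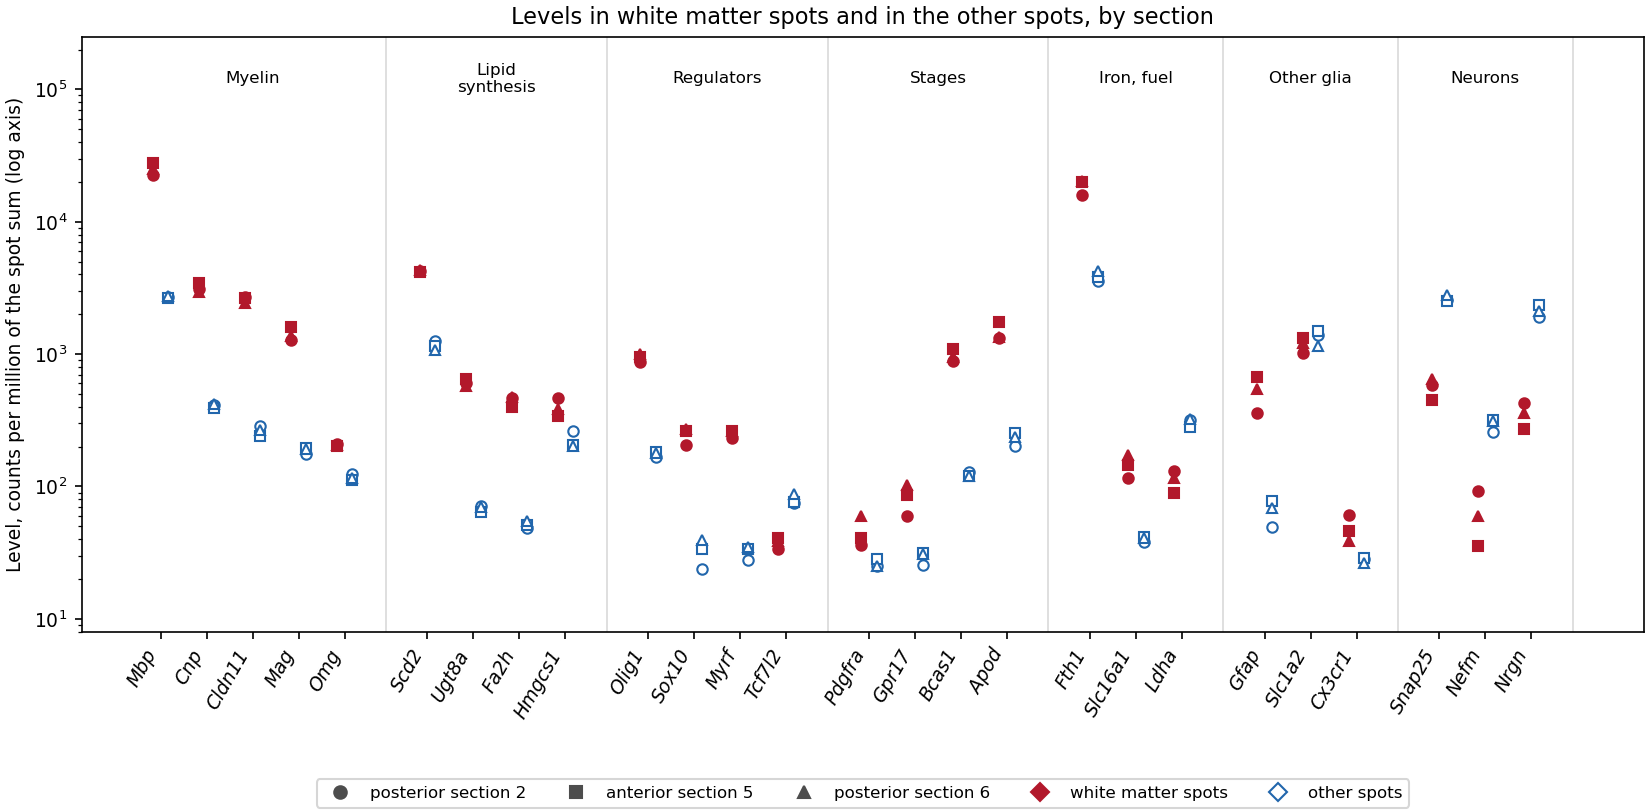
Level of 26 genes in white matter spots (filled red) and in the other spots (open blue) of each section, in CPM on a log axis, with a symbol for each of the 3 sections. Myelin, lipid and regulator genes lie above the other spots except Tcf7l2, and the neuronal genes Snap25, Nefm and Nrgn lie below.

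Genes of the myelin membrane and its junctions were higher throughout: 24 of 24 listed genes passed the test, with a median log2 fold change of 3.05. The spots were chosen on genes of the same cell type, so this direction is not independent of the choice. Mbp, which zips the cytoplasmic faces of the membrane together, was at 22434, 27564 and 24977 CPM in white matter spots and 2723, 2659.7 and 2758 CPM in the other spots. The sections did not overlap between the groups, and the log2 fold change was 3.35 ± 0.10. Cldn11, the claudin of the tight junctions between myelin layers, was at 2712, 2668 and 2443 CPM in white matter spots and 286, 241 and 268 CPM in the other spots, with a log2 fold change of 3.45 ± 0.09. Cnp, the phosphodiesterase that keeps cytoplasmic channels in myelin open, differed by 3.10 ± 0.09, and Mag, the adhesion molecule that faces the axon, by 3.06 ± 0.08. Tspan2 differed by 3.20 ± 0.08 and Gpr37, a receptor of myelinating oligodendrocytes, by 3.32 ± 0.09. Gjb1 and Gjc3, gap junction genes of the cell, differed by 3.23 ± 0.14 and 3.10 ± 0.10.

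The smallest differences on that list were in genes that other cells also use. Omg, a glycoprotein made by oligodendrocytes and neurons, was at 208, 201 and 207 CPM in white matter spots and 125, 113 and 117 CPM in the other spots, a log2 fold change of 0.95 ± 0.11. Gpm6b was higher by 1.38 ± 0.08, Cd81 by 1.67 ± 0.08 and Nfasc, whose glial form anchors the paranode and whose neuronal form sits at the node, by 1.48 ± 0.09. The values of the 3 sections stayed apart between the groups for each of these 4 genes.

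Regulators of the lineage followed the myelin genes with 1 exception. Of 11 listed transcription factors, 10 were higher and 1 lower, with a median log2 fold change of 2.56. Myrf, which switches on myelin genes at differentiation, was at 234, 261 and 263 CPM in white matter spots and 28, 33.6 and 35 CPM in the other spots, a log2 fold change of 3.13 ± 0.11. Sox10, expressed through the whole lineage, was at 207, 263 and 271 CPM in white matter spots and 24, 33.8 and 39.8 CPM in the other spots, a log2 fold change of 3.10 ± 0.11. Its lowest white matter value lay above the highest value of the other spots. Olig1 and Olig2 differed by 2.56 ± 0.08 and 2.70 ± 0.13, Nkx6-2 by 2.72 ± 0.12 and St18 by 3.06 ± 0.25. Zfp488 passed the test on 9.32, 13.6 and 1.75 CPM against 2.78, 2.16 and 2.39 CPM, but was not higher in posterior section 6, and without posterior section 2 or anterior section 5 it did not pass (1.67 and 1.39, edgeR adjusted p = 0.138 and 0.0970). Tcf7l2, a mediator of Wnt signalling that oligodendrocytes use when they differentiate and that thalamic neurons keep for life, was lower: 33.8, 40.7 and 38.5 CPM in white matter spots against 75.7, 76.4 and 87.7 CPM, a log2 fold change of -0.96 ± 0.17 (edgeR adjusted p = 2.72e-07).

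Of 19 genes of myelin lipid synthesis, 16 were higher and 1 was lower, with a median log2 fold change of 2.23. Ugt8a, which makes galactosylceramide, was at 607, 654 and 572 CPM in white matter spots and 71.6, 64.3 and 70.6 CPM in the other spots, a log2 fold change of 3.29 ± 0.09. Fa2h, which hydroxylates the fatty acids of that lipid, was at 468, 396 and 471 CPM in white matter spots and 48.2, 51.4 and 55.1 CPM in the other spots and differed by 3.28 ± 0.09. Gal3st1, the sulfotransferase that makes sulfatide, differed by 2.80 ± 0.13, Cers2, the synthase of very-long-chain ceramides, by 2.79 ± 0.10, and Aspa, which frees acetate from N-acetylaspartate, by 3.15 ± 0.11. Ugcg, which puts glucose rather than galactose on ceramide, was the lower gene: 43.1, 19 and 38.5 CPM against 88.7, 80.3 and 87.6 CPM, a log2 fold change of -1.10 ± 0.17 (edgeR adjusted p = 1.98e-09). With every spot thinned to 1000 counts it was at -0.32 and did not pass (edgeR adjusted p = 0.492). Among enzymes of general fatty acid synthesis the folds were uneven, with Scd2 at 2.02 ± 0.09, Scd1 at 2.23 ± 0.08 and Fasn at 0.80 ± 0.10 on the log2 scale.

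Cholesterol synthesis was higher by less. Of 19 listed enzymes 11 were higher and 0 lower, with a median log2 fold change of 0.59; 8 did not pass. Hmgcs1, an early enzyme of the pathway, was at 466, 339 and 387 CPM in white matter spots and 261, 205 and 202 CPM in the other spots, a log2 fold change of 0.99 ± 0.09. Cyp51, Sc5d and Dhcr7, which act late in the pathway, differed by 1.06 ± 0.14, 1.17 ± 0.17 and 1.01 ± 0.16. Neurons and astrocytes make cholesterol too, and the summed level of the 19 enzymes was 1562, 1471 and 1554 CPM in white matter spots against 1181, 984 and 1014 CPM.

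The spots were chosen on genes of mature oligodendrocytes, so an order of the stages is not independent of that choice. Of 24 genes of mature oligodendrocytes 23 were higher and 1 lower (median log2 fold change 2.68), of 12 genes of newly formed cells 11 were higher and 0 lower (median 1.43), and of 14 genes of precursors 9 were higher and 0 lower (median 0.73). Apod, a lipocalin of mature oligodendrocytes, was at 1330.1, 1740.1 and 1344 CPM in white matter spots and 203, 255 and 235 CPM in the other spots, a log2 fold change of 2.82 ± 0.08. Trf, transferrin, differed by 3.20 ± 0.09, Car2, a carbonic anhydrase, by 2.93 ± 0.08, Ndrg1 by 3.11 ± 0.08 and Gatm, an enzyme of creatine synthesis, by 3.07 ± 0.08. Opcml, a neuronal adhesion gene placed on the mature list, was the lower member, at -1.33 ± 0.15.

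Among genes of newly formed oligodendrocytes, Enpp6, a choline phosphodiesterase that marks cells just beginning to myelinate, was at 51.2, 40.7 and 40.3 CPM in white matter spots and 4.25, 5.52 and 3.94 CPM in the other spots, a log2 fold change of 3.49 ± 0.27. Bcas1, which is also retained in mature cells, was at 886, 1102 and 945 CPM in white matter spots and 128, 121 and 119.5 CPM in the other spots and differed by 3.13 ± 0.08. Gpr17, a receptor of committed precursors, was at 59.4, 86.9 and 103 CPM in white matter spots and 25.7, 31.7 and 30.9 CPM in the other spots and differed by 1.62 ± 0.16. The groups did not overlap for these 3 genes. Among precursor genes, Pdgfra, the receptor that keeps precursors dividing, was at 36.1, 40.7 and 59.5 CPM in white matter spots and 25, 28.3 and 25 CPM in the other spots, a log2 fold change of 0.95 ± 0.19 (edgeR adjusted p = 5.8e-06). Vcan, a proteoglycan of the precursor's matrix, differed by 1.84 ± 0.28, and Cspg5, Cacng4, Lhfpl3, Megf11 and Xylt1 did not pass.

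Structural genes of the cell extended the pattern. Of 18 septin and cytoskeleton genes 16 were higher and 2 lower, with a median log2 fold change of 1.42. Anln, a scaffold for septin filaments in myelin, was at 222, 239 and 329 CPM in white matter spots and 21.5, 26.3 and 26.3 CPM in the other spots, and its log2 fold change of 3.58 ± 0.11 was among the 12 largest of all genes that met the level and direction rule. Sept4 differed by 2.65 ± 0.08, Sept2 by 1.86 ± 0.12 and Sept7 by 0.92 ± 0.08. Tubb4a, a tubulin abundant in oligodendrocytes, was at 855, 1336 and 1078 CPM in white matter spots and 318, 468 and 463 CPM in the other spots and differed by 1.54 ± 0.08. The 2 lower genes were Actr3b (-1.65 ± 0.19) and Dynll2 (-0.39 ± 0.09).

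**Figure D2:**
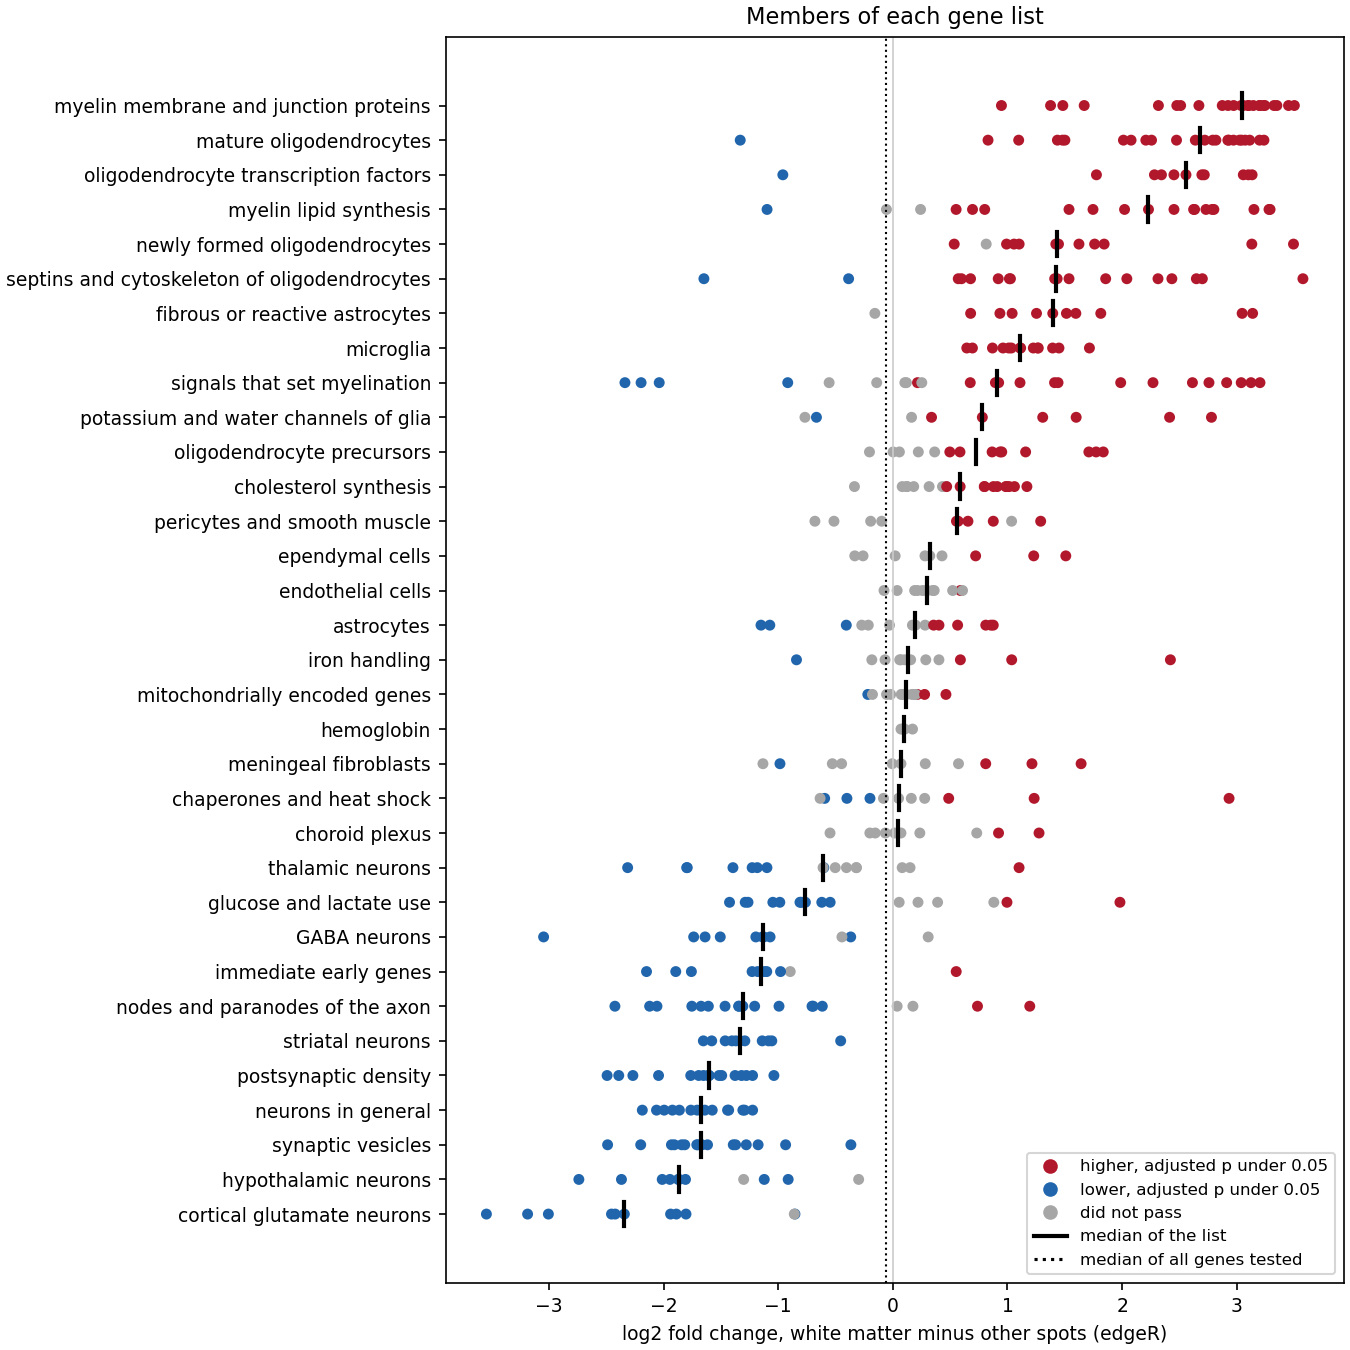
Log2 fold change, white matter minus other spots, of every tested member of the 33 gene lists (points; red higher, blue lower, grey not past the test), with the median of each list (black bar) and of all genes (dotted line at -0.06). Lists run from cortical neurons (median -2.34) to myelin proteins (median 3.05).

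Over all genes, the 12 largest differences upward among genes of at least 20 CPM with 1 direction in 3 sections included Cxcl5, Cyp2j12, Anln, Insc, Ifi27l2a, Enpp6, Thbs4, Cldn11, Mbp, Gpr37 and Tnfaip6. Cxcl5, a chemokine, rested on few counts, 19, 13 and 3 in the white matter spots (22.1, 35.3 and 5.25 CPM) against 1.35, 0.745 and 0.389 CPM in the others, and its log2 fold change was 4.59 ± 0.48. Thbs4, a thrombospondin made by astrocytes and some neurons, was at 47.8, 35.3 and 70 CPM in white matter spots and 6.12, 4.55 and 4.61 CPM in the other spots, a log2 fold change of 3.46 ± 0.25. Ifi27l2a, an interferon-induced gene, was at 30.3, 40.7 and 63 CPM in white matter spots and 4.25, 3.88 and 4.33 CPM in the other spots and differed by 3.51 ± 0.28. All 3 were above the other spots in every section. Insc differed by 3.53 ± 0.24, Tnfaip6, a hyaluronan-binding protein, by 3.31 ± 0.14, and Cyp2j12, a cytochrome P450, by 3.80 ± 0.32.

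Of 12 iron genes 3 were higher and 1 lower, with a median of 0.13. Fth1, the ferritin heavy chain that stores iron, was at 15930.2, 20009 and 20340.2 CPM in white matter spots and 3586, 3821 and 4221 CPM in the other spots, a log2 fold change of 2.42 ± 0.09 with no overlap between the groups. Ftl1, the light chain, was at 452, 608 and 588 CPM in white matter spots and 255, 325 and 309 CPM in the other spots and differed by 1.04 ± 0.08. The iron importer Tfrc did not pass, with 73.4, 62.4 and 61.3 CPM in white matter spots and 65.4, 65.7 and 69.7 CPM in the other spots. The third higher gene, Aco1 (0.59 ± 0.24), and the lower one, Slc25a37 (-0.84 ± 0.33), did not have 1 direction in the 3 sections, and without posterior section 2 they did not pass (edgeR adjusted p = 0.380 and 0.860, with log2 fold changes of 0.44 and -0.13). Of 17 genes of glucose and lactate use, 2 were higher and 11 lower, beside 22.7% lower among all genes, with a median of -0.76. The number lower was 11 under each of the 15 alternatives. Slc16a1, the monocarboxylate transporter by which oligodendrocytes release lactate to axons, was one of the 2, at 115, 147 and 172 CPM in white matter spots and 38.1, 41.6 and 40.5 CPM in the other spots, a log2 fold change of 1.98 ± 0.13. Slc2a1, a glucose transporter of glia and vessels, was the other, at 1.00 ± 0.12. Among the 11 lower genes were the glycolytic enzymes Ldha at -1.26 ± 0.11, Pfkp at -1.42 ± 0.13 and Gapdh at -0.55 ± 0.08, and the neuronal glucose transporter Slc2a3 at -1.29 ± 0.18. Aldoc, an astrocytic glycolytic enzyme, and Pfkfb3, which activates glycolysis, did not pass, at 0.06 and 0.39. General neuronal genes summed to 2737, 1982 and 2962 CPM in the same spots against 9152, 9388 and 9938 CPM, and their part in the lower values was not tested.

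Of 24 genes of signals that set myelination, 15 were higher and 4 lower, with a median of 0.91. Some receptors were among the higher genes. Erbb3, the neuregulin receptor, was at 93.2, 86.9 and 77 CPM in white matter spots and 10.2, 9.47 and 11.5 CPM in the other spots (3.20 ± 0.19), Lpar1, a lysophosphatidic acid receptor, differed by 3.12 ± 0.11, S1pr5, a sphingosine phosphate receptor, by 3.04 ± 0.13, Fgfr2 by 2.76 ± 0.11 and Plxnb3 by 2.61 ± 0.17. The receptors Erbb4 and Igf1r did not pass, at 0.12 and 0.11. The 4 lower genes were Lingo1 (-2.34 ± 0.15), Rtn4r, the Nogo receptor (-2.04 ± 0.25), Nrg3 (-2.20 ± 0.39) and Adgrb3 (-0.92 ± 0.19), each also expressed by neurons. Rtn4, which encodes Nogo, passed at 0.22 ± 0.08 (edgeR adjusted p = 0.027). It was at 792, 638 and 739 CPM in white matter spots and 719, 680.2 and 686 CPM in the other spots. In unscaled CPM it was thus below them in anterior section 5, though not once the totals are scaled. Without posterior section 2 or 6 it did not pass (edgeR adjusted p = 0.162 and 0.0588). Of 9 channel and transporter genes of glia, 6 were higher and 1 lower; Clic4 differed by 2.78 ± 0.09, Slc12a2, a chloride importer, by 2.41 ± 0.10, and Kcnj10, the Kir4.1 potassium channel of astrocytes and oligodendrocytes, by 1.31 ± 0.09. Among 11 chaperones 3 were higher and 3 lower, beside 18.7% higher and 22.7% lower among all genes. The median of the list was 0.05 and had the other sign under 5 of the 15 alternatives, so the list as a whole showed no direction. Cryab, the alphaB-crystallin of oligodendrocytes, was at 1224, 1944 and 1715 CPM in white matter spots and 199, 244 and 256 CPM in the other spots, a log2 fold change of 2.93 ± 0.08, while Hspa8 was lower at -0.59 ± 0.08.

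RNA of genes of the axonal side of the myelinated fibre did not follow that of the myelin genes. Only RNA was counted, so the proteins of the axon were not measured. General neuronal genes, given below, were lower as well (median -1.67), and their part in these values was not tested. Of 20 genes of nodes and paranodes 2 were higher and 16 lower, with a median of -1.31. Cntnap1 (Caspr), the axonal partner at the paranodal junction, was at 22.1, 16.3 and 21 CPM in white matter spots and 86.7, 102 and 103 CPM in the other spots, a log2 fold change of -2.06 ± 0.20. The nodal sodium channel genes Scn1a and Scn8a were lower, at -2.42 ± 0.22 and -1.67 ± 0.15. Epb41l3, a scaffold of the paranode, was higher: 268, 279.6 and 282 CPM against 135, 128 and 137 CPM, a log2 fold change of 1.19 ± 0.10. Kcna1, a juxtaparanodal potassium channel gene, was the other, at 0.74 ± 0.24 (edgeR adjusted p = 0.00683), though at -0.01 with spots chosen on a random part of the counts and tested on the rest, and not past the test without anterior section 5 (0.58, edgeR adjusted p = 0.139), while its partner Kcna2 was lower at -1.46 ± 0.13. Ank3 and Ank2, ankyrins of the axon, did not pass.

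Neuronal lists were lower nearly throughout. All 14 general neuronal genes were lower (median -1.67), as were 17 of 17 synaptic vesicle genes (median -1.67) and 17 of 17 genes of the postsynaptic density (median -1.60). Snap25, a fusion protein of synaptic vesicles, was at 588, 451 and 651 CPM in white matter spots and 2567, 2532 and 2778 CPM in the other spots, a log2 fold change of -2.06 ± 0.09. Nefm, a neurofilament of axons, was at 92, 35.3 and 59.5 CPM in white matter spots and 259, 318 and 312 CPM in the other spots and differed by -1.92 ± 0.13. Nrgn, a calmodulin-binding protein of dendrites, was at 426, 271 and 357 CPM in white matter spots and 1923, 2331 and 2102 CPM in the other spots and differed by -2.39 ± 0.10. The groups lay far apart for these 3 genes, with anterior section 5 lowest in white matter spots each time. The largest differences downward by the same rule included Scube1, Fam19a2, Gm11549, C1ql3, Plcxd2, Gpr22, Bdnf, Neurod2, Vip, Gls2 and Neurod6. Scube1 had 0, 0 and 1 counts in white matter spots, against 25.3, 29.6 and 31.7 CPM in the others, so no fold is given. The log2 fold change of C1ql3 was -3.44 and moved to -4.73 without posterior section 2 and -2.77 without posterior section 6. That of Gm11549 moved from -3.53 to -4.77 without posterior section 2, that of Vip from -3.05 to -4.06 without posterior section 6, and that of Plcxd2 from -3.36 to -2.72 and -4.13 without posterior sections 2 and 6. All 4 stayed lower in these fits but rested on few counts. C1ql3 had a count in 2, 0.667 and 0% of white matter spots and Gm11549 in 2.67, 0.667 and 0%. Plcxd2 had one in 1.33, 1.33 and 4% and Vip in 1.33, 0 and 2.67%. With every spot thinned to 1000 counts Vip was at -1.39 and did not pass (edgeR adjusted p = 0.111). Neurod2, a factor of cortical glutamate neurons, was at 4.66, 2.71 and 7.0 CPM in white matter spots and 44.3, 49.9 and 61 CPM in the other spots, a log2 fold change of -3.19 ± 0.33.

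By region, the median fold downward was largest for cortical genes. Of 11 cortical genes 10 were lower (median -2.34), of 11 striatal genes 11 (median -1.33), of 11 hypothalamic genes 9 (median -1.86), of 11 GABA neuron genes 9 (median -1.14) and of 16 thalamic genes 8 (median -0.61), with 1 thalamic gene, Plekhg1, higher at 1.10 ± 0.23. Ppp1r1b, the DARPP-32 gene of striatal neurons, was at 211, 201 and 109 CPM in white matter spots and 396, 453 and 441 CPM in the other spots, with posterior section 6 the lowest. Oxt, oxytocin, was at 2.33, 48.9 and 320.3 CPM in white matter spots and 51.2, 418 and 895 CPM in the other spots, a log2 fold change of -1.81 ± 0.12 that moved to -3.12 without posterior section 6. In both groups posterior section 2 was lowest and posterior section 6 highest. Of 10 immediate early genes 8 were lower and 1, Jun, was higher (0.55 ± 0.15). Jun did not pass without posterior section 2 (0.41, edgeR adjusted p = 0.0898), with 300 spots a section (0.25) or with spots chosen on a random part of the counts and tested on the rest (0.38).

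Genes of other glia were mixed. Of 15 general astrocyte genes 6 were higher and 3 lower, with a median of 0.20; Slc1a2, the main glutamate transporter of astrocytes, was at 1025, 1330.2 and 1204 CPM in white matter spots and 1390.0, 1488 and 1148 CPM in the other spots, and did not pass (edgeR adjusted p = 0.818). Of 11 genes of fibrous or reactive astrocytes 10 were higher and 0 lower, with a median of 1.40. Gfap, the intermediate filament of fibrous astrocytes, was at 362, 668 and 546 CPM in white matter spots and 49, 78.2 and 68.8 CPM in the other spots, a log2 fold change of 3.14 ± 0.09, and C4b, a complement component, was at 74.5, 190.0 and 109 CPM in white matter spots and 14.8, 17.7 and 13.5 CPM in the other spots, a log2 fold change of 3.05 ± 0.16. Both were lowest in posterior section 2 and highest in anterior section 5 among white matter spots, and above the other spots in each section. Slc6a11, a GABA transporter of grey matter astrocytes, was lower at -1.15 ± 0.16. The summed level of the fibrous list was 3127, 4137 and 3763 CPM against 1594, 1854 and 1855 CPM, and no member was at 0.

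All 14 microglia genes were higher (median 1.11), and their summed level was 4517, 5185 and 5317 CPM in white matter spots against 3072, 3425 and 3118 CPM. Cx3cr1, the fractalkine receptor, was at 60.6, 46.1 and 38.5 CPM in white matter spots and 28.3, 28.6 and 26.3 CPM in the other spots, a log2 fold change of 1.01 ± 0.18, and Ctss, a lysosomal protease, was at 154, 312 and 186 CPM in white matter spots and 66.6, 74.2 and 66.5 CPM in the other spots, a log2 fold change of 1.72 ± 0.11. Defining markers were counted in every section, with P2ry12 at 60.6, 38 and 43.8 CPM in white matter spots and 32.7, 29.7 and 28.2 CPM in the other spots. With every spot thinned to 1000 counts P2ry12 did not pass (0.43, edgeR adjusted p = 0.468). Cx3cr1 did not pass with 75 spots a section (0.60, edgeR adjusted p = 0.0905). Over the 15 alternatives, 12 to 14 of the microglia genes were higher. Of 12 endothelial genes 1 was higher, and of 10 pericyte and smooth muscle genes 5 were. Of 9 ependymal genes 3 were higher and 0 lower. Of 10 choroid plexus genes 2 were higher, Folr1 (0.92 ± 0.19; 0.27 without posterior section 2, where it no longer passed) and Enpp2 (1.28 ± 0.08), which oligodendrocytes also express. Of 11 meningeal genes 3 were higher and 1 lower. Read against the 18.7% of all genes that were higher, the endothelial, choroid plexus and iron lists lay near or below that share. The part that astrocytes, microglia or any of these cells have in genes outside their own lists was not tested.

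Levels changed gradually along the score. Spots were put in bands that ended at ranks 75, 150, 300, 600 and 1200, with the rest as the last band. The score is made of 5 oligodendrocyte genes, so a fall of Cnp or a rise of Snap25 along it is not independent of the ranking. In posterior section 2 Cnp was at 3471, 2783, 1699, 909, 479 and 223 CPM. In anterior section 5 the same bands held 3725, 3179, 1901, 883, 463 and 202 CPM, and in posterior section 6 3428, 2539, 1995, 935, 510.1 and 213 CPM. Cnp thus fell from band to band in each section and did not stop at the border of rank 150. Gfap was at 729.8, 605, 422, 162, 71.2 and 47.8 CPM over the bands of anterior section 5, and Snap25 ran the other way, at 362, 539.8, 1049, 1806, 2366 and 2797 CPM. Slc1a2 rose from band to band in posterior section 2, at 997, 1049, 1233, 1263, 1288 and 1458 CPM. It moved less in the other sections, at 1270.4, 1390.4, 1359, 1423, 1369 and 1552 CPM in anterior section 5 and 1152, 1253, 1197, 1211, 1138 and 1139.7 CPM in posterior section 6.

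**Figure D3:**
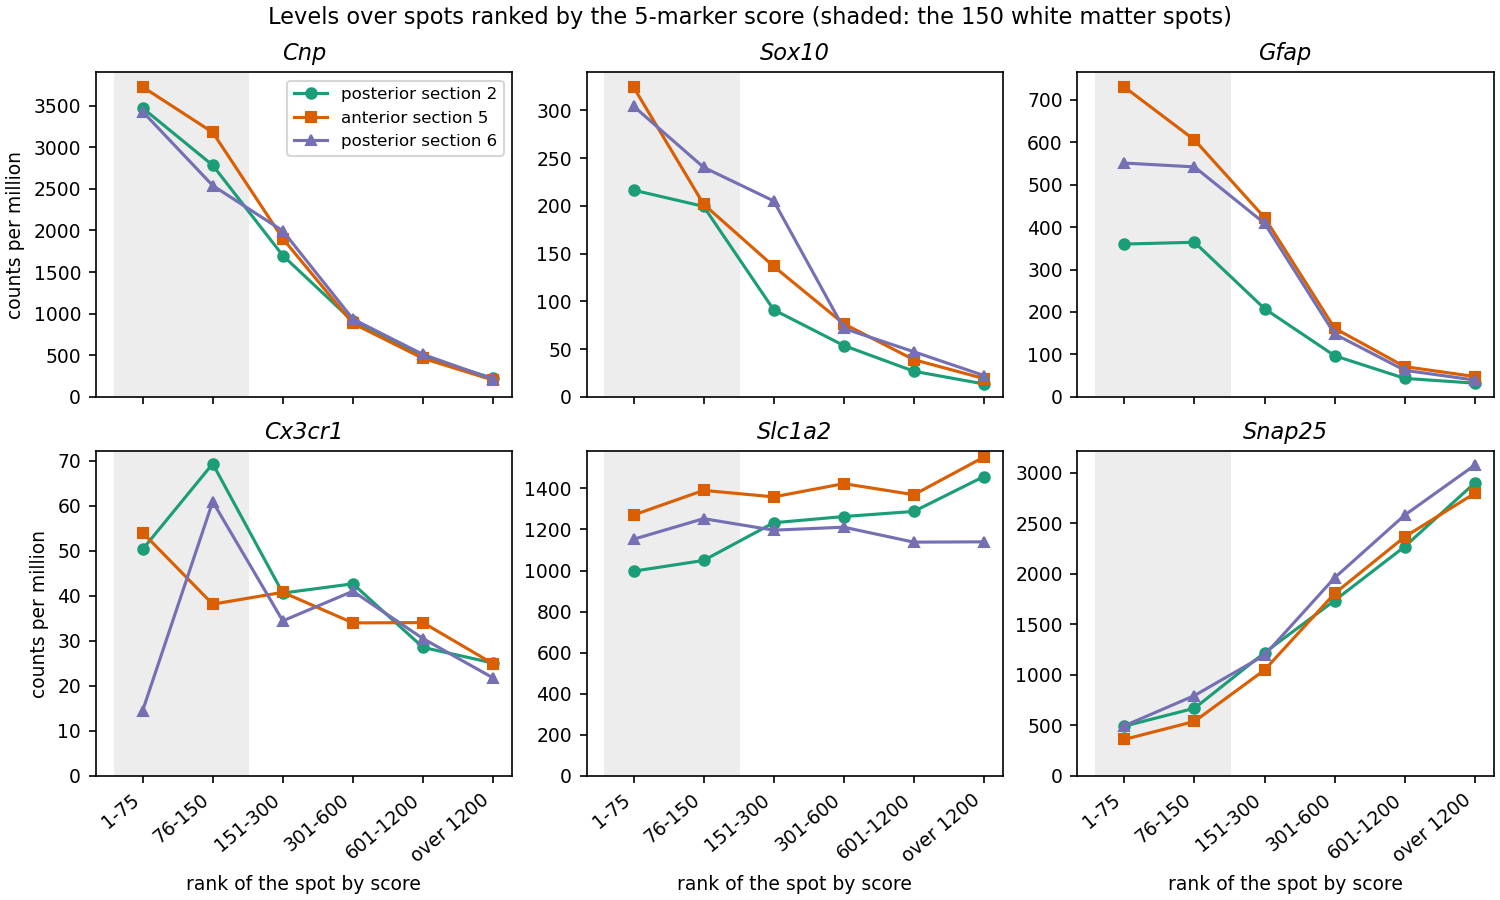
Level of 6 genes (CPM) in bands of spots ranked by the 5-marker score, for each section; the shaded bands hold the 150 white matter spots. Cnp and Sox10 fall along the rank, Gfap falls beyond rank 150 and Snap25 climbs. Slc1a2 climbs in posterior section 2 and moves less in the other sections. The ranking uses oligodendrocyte genes, so these directions are not independent of it.

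Single spots varied in what else they held. With every spot thinned to 1000 counts, which left out none, Cnp had a count in 96, 95.3 and 92.7% of white matter spots against 31.9, 32.1 and 35.4% of the others (100, 100 and 100% and 87.9, 77.3 and 86% unthinned). Gfap had one in 29.3, 43.3 and 37.3% against 5.27, 8.48 and 6.84% (76, 68 and 82% and 26.8, 24.3 and 27.1% unthinned). Enpp6 was seen in 6, 4.67 and 3.33% against 0.645, 0.756 and 0.513% (26.7, 8 and 12.7% and 3.72, 2.86 and 2.99% unthinned), so it was counted in few spots. General neuronal genes summed to a median of 2 of 1000 counts in white matter spots of each section, against 9, 8 and 9 in the others, and 25, 36 and 17 of the 150 spots had none of them. Microglia genes summed to a median of 4, 5 and 5 counts against 3, 3 and 3.

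Few white matter spots carried a regional neuronal signature. Striatal genes exceeded the upper quartile of the other spots in 16, 16 and 8 of 150 spots, thalamic genes in 7, 7 and 10, hypothalamic genes in 1, 6 and 6, and cortical genes in 0, 0 and 1. In 127, 122 and 127 spots none of these 4 lists did. Choroid plexus genes, which include Enpp2, had a median of 4, 4 and 3 of 1000 counts in white matter spots against 0, 0 and 0 in the others, and single spots reached 69, 57 and 27. Enpp2 alone had a count in 78.7, 74 and 74.7% of the thinned white matter spots against 24.7, 23.4 and 22.8% of the others (98.7, 94 and 98.7% and 79.7, 63.1 and 71.8% unthinned). Summed over spots, Ttr was at 5859.8, 5760.4 and 2809 CPM in white matter spots and 5963, 4381 and 4873 CPM in the other spots, and did not pass (edgeR adjusted p = 0.908).

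Within white matter spots the anterior section was set against both posterior sections. It is a single section, so no test was made, and intervals are exact 95% Poisson intervals that cover counting error only. Of 2947 genes with enough counts, 4 (0.136%) were at least 2-fold higher in the anterior than in both posterior sections and 7 (0.238%) lower. The same rule gave 7 higher and 2 lower genes for posterior section 2 against the other sections and 5 and 1 for posterior section 6, beside the 4 and 7 of the anterior section.

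The higher genes were H2-D1, H2-K1, B2m and Lars2, and the first 3 encode MHC class I chains and their shared light chain. H2-D1 was at 55.9, 537 and 121 CPM in white matter spots (intervals 41.2 to 74.1, 465 to 618, 94 to 153) and at 35.5, 56.4 and 51.6 CPM in the other spots. H2-K1 was at 53.6, 271 and 75.3 CPM against 30.4, 38.9 and 37.9 CPM in the other spots. B2m was at 236, 1137 and 418 CPM against 139, 182 and 161 CPM. That the anterior white matter spots stood above both posterior sections in all 3 genes follows from the rule that picked the genes. The anterior white matter spots also stood above the other spots of every section. The intervals printed for H2-D1 did not overlap between the anterior and either posterior section, which is not independent of the rule either. H2-D1 and H2-K1 are close in sequence and their reads may be exchanged in the authors' counting. The H2-D1 counts lay in 37, 71 and 42 of the 150 spots, with at most 3, 12 and 4 in a spot, and the 15 spots with the most held 54.2, 52.5 and 60.9% of them. Along the ranked bands, H2-D1 was at 622, 453, 233, 72.7, 44.1 and 48.4 CPM in anterior section 5, at 65.4, 47.7, 56, 32, 35.3 and 34.7 CPM in posterior section 2 and at 138, 105, 141, 66.5, 45.4 and 46.7 CPM in posterior section 6. Beyond rank 300 the values of anterior section 5 lay close to those of posterior section 6. Against the other spots, each of the 3 genes also passed the test over all sections (log2 fold changes 2.10 ± 0.12, 1.79 ± 0.14 and 1.80 ± 0.09). Without anterior section 5 H2-D1 was at 1.12, H2-K1 at 1.05 and B2m at 1.23, and all 3 still passed. By section, H2-D1 was 1.58, 9.53 and 2.34 times as high in white matter as in the other spots, a spread that its SE leaves out.

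Some genes of other cells also differed between the sections. They are a few of the genes looked up after the H2-D1 values were seen. Ctss was at 154, 312 and 186 CPM, C4b at 74.5, 190.0 and 109 CPM and Cd74, the MHC class II chaperone, at 2.33, 89.6 and 14 CPM, highest in the anterior section each time. P2ry12 and Cx3cr1, markers of resting microglia, were not highest there, at 60.6, 38 and 43.8 CPM and 60.6, 46.1 and 38.5 CPM, and the summed microglia list, given above, was highest in posterior section 6. The T cell genes Cd3e and Cd8a had 0 counts in the white matter spots of every section, which allows up to 3.49, 8.14 and 5.25 CPM. The part of any cell type in the class I values was not tested.

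**Figure D4:**
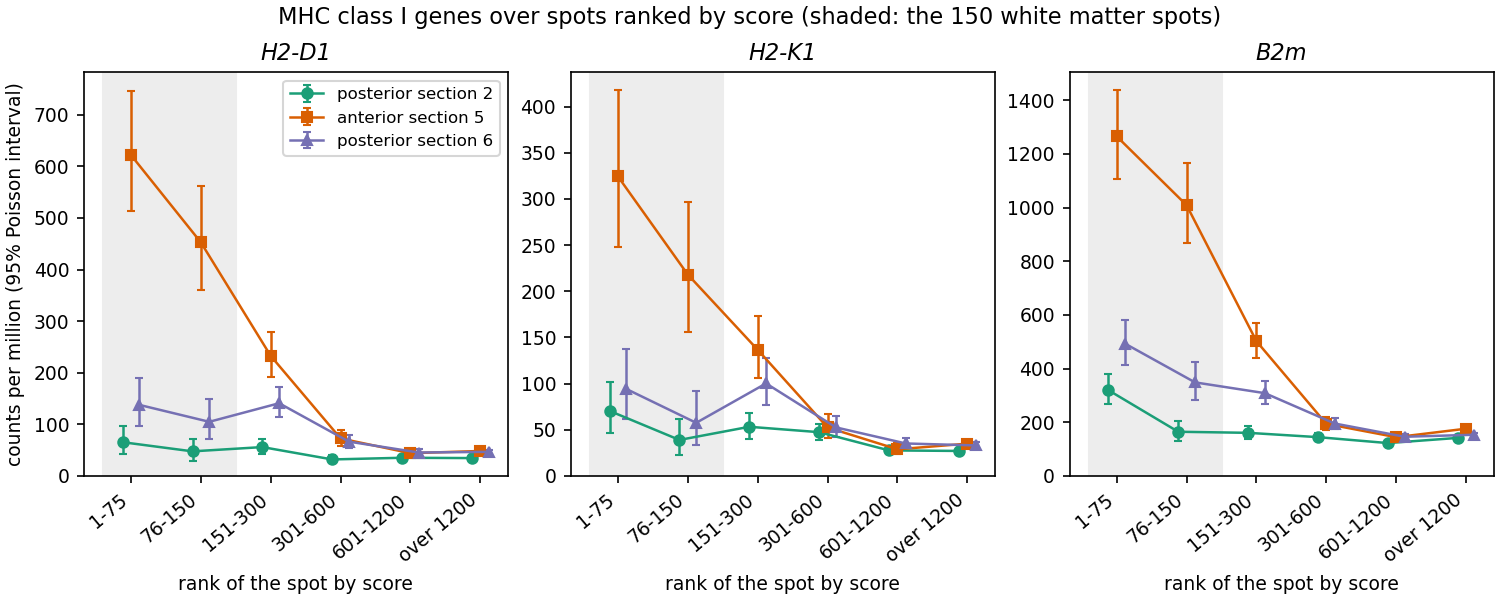
Level of H2-D1, H2-K1 and B2m (CPM; bars are exact 95% Poisson intervals) in bands of spots ranked by the 5-marker score, for each section; the shaded bands hold the white matter spots. Anterior section 5 stands above both posterior sections in the first 3 bands for all 3 genes, and lies close to posterior section 6 beyond rank 300. The genes were picked for their level in the shaded bands of anterior section 5.

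Lars2, a mitochondrial leucyl-tRNA synthetase, was at 1919, 6857 and 3166 CPM in white matter and 3413, 6839 and 5392 CPM in the other spots, so it was highest in the anterior section in both. The 7 lower genes, Dnm1l, Syn1, Aurkaip1, Chgb, Pcdh10, Tmed9 and Idh3g, had 12 to 21 counts in the anterior section. Syn1, a synaptic vesicle protein, was at 90.8, 40.7 and 109 CPM (intervals 71.8 to 113, 22.8 to 67.2, 83.2 to 139), and the summed general neuronal list was 2737, 1982 and 2962 CPM in the same spots. How far that list's level bears on Syn1 and Chgb was not tested. With 75 and with 300 spots a section, 3 of the 4 higher genes were kept and 0 of the 7 lower genes.

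The single cells were used to see which white matter genes are counted in oligodendrocyte-like cells. Of 904 cells, 26 (2, 11 and 13 from 3 animals) had a count for at least 3 of the 5 rule genes, 21 of them for all 5, 5 for 4 and none for exactly 3. The cells were pooled as 1 sample, so the values carry no test. Mbp was at 4746 CPM in the 26 cells and 57.2 CPM in the other 878, and Cryab at 1817 and 5.95 CPM. Fth1 was at 5323 and 886 CPM, and Enpp2 at 958 and 14.8 CPM. All 4 genes high in white matter spots were high in these cells too. The cells and the spots were chosen on the same 5 genes. A shared direction in other oligodendrocyte genes, here and in the shares that follow, is therefore not independent of that choice. Of the 98 genes at least 8-fold higher in white matter spots that could be matched by symbol, 71 (72.4%) were at least 2-fold higher in the oligodendrocyte-like cells, against 14.4% of all 13796 matched genes. All 24 myelin membrane genes were counted in at least 13 of the 26 cells. Neuronal RNA was present in the wells as well: Slc17a6, a glutamate transporter of thalamic neurons, had a count in 12 of the 26 cells, at 332 CPM against 879 CPM.

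Other genes that were high in white matter spots were missing from these cells. Gfap, Thbs4, Cxcl5 and Ifi27l2a had 0 counts in the 26 cells. Of the 14 microglia genes 10 had none, Cx3cr1 and Ctss among them, and of 11 genes of fibrous astrocytes 5 had none. The summed fibrous list was nevertheless at 328 CPM in the 26 cells against 90.1 CPM in the others, and the microglia list at 527 against 578 CPM. C4b had 17 counts, in 2 of the 26 cells. Ttr had 0 counts. Enpp6 was counted in 8 of 26 cells (43.5 CPM against 6.91 CPM), Gpr17 in 6 and Pdgfra in 0. Slc16a1 was counted in 6, at 30.8 against 15.2 CPM. H2-D1 was at 7.37 against 34.8 CPM and B2m at 35.5 against 25.3 CPM. Whether any animal gave both cells and sections is not stated. Tcf7l2 was at 374 against 754 CPM, below the other cells as it was below the other spots.

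**Figure D5:**
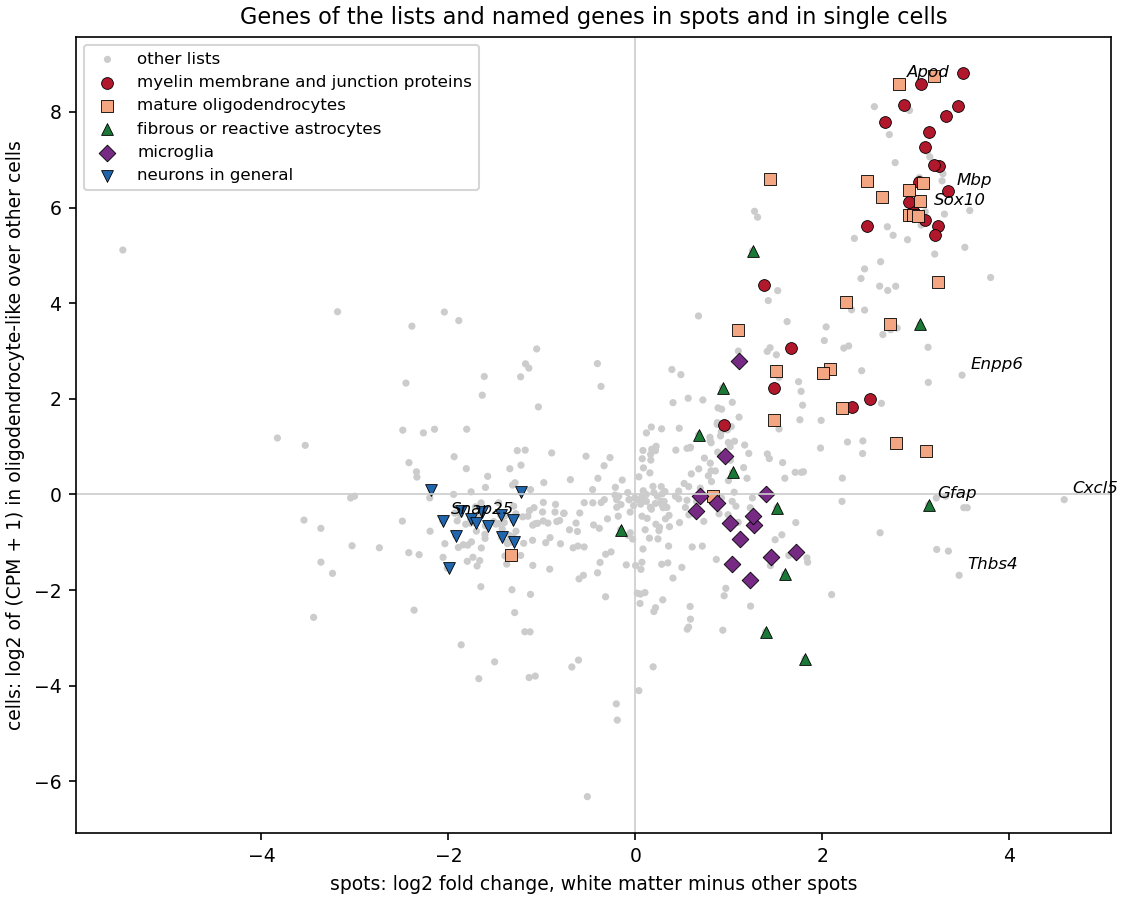
For genes of the lists and named genes, log2 fold change between white matter and other spots (x axis) against log2 of (CPM + 1) in the 26 oligodendrocyte-like over the 878 other cells (y axis); each point is a gene. Myelin and mature oligodendrocyte genes lie at the upper right, while Gfap, Thbs4, Cxcl5 and most microglia genes lie to the right with no excess in the cells.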

How the data were processed

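Visium spots of 3 wild-type mouse brain sections (1 anterior, 2 posterior) were analysed. The spot table holds raw counts that the authors deposited per gene and spot (28692 genes, 8714 of them at 0 in every spot). The submitters' processing notes name 2 tools, Seurat and Space Ranger, and 2 builds, mm10 and NCBIM37; which served which step is not given in the sources used here. The single-cell table also holds raw counts as deposited; its counting tool is not given. The listed total of each of the 7827 spots equalled its column sum.

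Spots of at least 1000 counts were scored as described, and counts were summed per section. No doublet caller was run on spots. Of 1216 wells listed with an animal, 9 whose source named another animal were left out, and cells with at least 1000 genes were kept; an oligodendrocyte-like cell had a count for at least 3 of the 5 markers. Wells could not be matched to single GEO samples, so the cells were pooled.

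Sums were tested with edgeR 4.0.16 in R 4.3.3: quasi-likelihood F test, TMM scaling, low-count filter by filterByExpr, Benjamini-Hochberg adjustment over all genes, threshold 0.05. The section was a block, since both sums of a section come from the same tissue; within a section the deviations of the 2 sums correlated at 0.175, 0.093 and 0.105. Named genes were the 12 with the largest fold change each way among those of at least 20 CPM, past the threshold, 2-fold or more and of 1 direction in 3 sections, up to 6 per list by adjusted p, and up to 10 each way between anterior and posterior sections (at least 50 counts, 2-fold); further members and genes were named after their values were seen. Members and lists were chosen with earlier results of these data known. The alternatives were DESeq2 1.42.0 on unfiltered genes and, chosen after seeing the data, on the filtered genes, limma 3.58.1 (chosen after seeing the data), other scaling, filters, spot numbers, depths and comparison spots, and each section left out. Some genes that the rule names are not reported here. The edgeR script was tested on simulated data. Intervals are exact Poisson intervals (95%) and, like the limit of 3 counts, cover counting error only.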

Additional observations from a re-analysis of the deposited data

Results flagged for a closer look

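In 7 named genes the difference between white matter and other spots, in unscaled CPM, had the opposite sign in the anterior section to that in both posterior sections. With 1 anterior section this was not tested. The rule set no minimum size, so a difference within counting error could be flagged. With totals scaled as in the fit, Rtn4 would be higher in white matter spots of the anterior section. Cspg5 would be higher in those of posterior section 6, and Ttr in those of posterior section 2. The rule would then not flag these genes.
For Aco1, it was -4.73 CPM in the anterior section, against 10.9 and 9.46 CPM in the posterior sections. Cspg5 differed by 5.61 CPM in the anterior section and by -29.8 and -16 CPM in the posterior sections. The values for Erbb4 were -21.5 CPM in the anterior and 2.68 and 7.8 CPM in the posterior sections. For Lars2, it was 18.6 CPM in the anterior section, against -1493 and -2226 CPM in the posterior sections. Rtn4 differed by -42.3 CPM in the anterior section and by 73.4 and 53.1 CPM in the posterior sections. The values for Slc25a37 were 1.29 CPM in the anterior and -17.4 and -6.88 CPM in the posterior sections. For Ttr, it was 1379 CPM in the anterior section, against -104 and -2064 CPM in the posterior sections.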

How the results depend on the processing

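Against 2628 higher and 3199 lower genes in white matter spots, the counts moved by over 1.5 times when every spot was thinned to 1000 counts (1338 and 1565 of 10847 genes tested, fewer than the 14086) and, for lower genes, with DESeq2 (2002, beside 1979 higher), which was run on 19973 genes with no filter on low counts. On the 14086 genes of the edgeR filter, a run added after seeing the data, DESeq2 gave 1996 higher and 2017 lower genes, with the median of all genes at -0.06. Leaving out each section gave 2109 to 2335 higher and 2425 to 2797 lower genes. Without the replicate block, that is, without pairing the sums of a section, there were 2587 and 2773. With limma there were 1996 and 2608, and with spots chosen on a random part of the counts and tested on the rest 1873 and 2421. The median of all genes moved from -0.06 to 0.21 with unfiltered DESeq2 and to -0.33 with no filter on low counts. Lower genes of the anterior section numbered 3 with 75 spots a section, 8 with 300 (0 of the 7 shared in both), 0 with a minimum of 100 counts and 8 as a ratio to the other spots (5 shared), against 7. Of 124 named genes that passed, 16 did not pass under at least 1 of 15 alternatives, most often Rtn4, Aco1 and Slc25a37. Kcna1 changed sign, to -0.0114, with spots chosen on a random part of the counts. The cause of these moves was not tested. White matter spots of the anterior section were shallowest, so 3 counts there stand for 8.14 CPM.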
